A study of Bos taurus with 8 samples.

Results

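The genes described are those of the cell cycle and of DNA replication, a list of 57 genes that was followed through cultured muscle cells of beef and dairy bulls. A gene was taken as measured when a probe carried a RefSeq accession with its symbol. By that rule, 33 of the 57 genes had at least 1 probe. They were 12 of 18 replication genes, 14 of 24 mitosis genes, 4 of 7 cyclins and kinases of the G1 phase, 2 of 5 cell cycle inhibitors, and 1 of 3 genes of the pocket protein and E2F group. The 33 genes had 34 probes of the 21475 on the array, and the brightest probe of each gene stood well above background in all 16 channels. The other 24 genes, without a matched probe, were MCM2, MCM6, MCM7, CDT1, RFC5, RRM2, CDK6, CCND1, CCND2, MKI67, CCNA2, CCNB1, TOP2A, MAD2L1, AURKB, KIF11, TPX2, CENPA, CKS1B, CDKN1B, CDKN1C, CDKN3, RBL1, and E2F1, and they are not analysed here. Of 20693 accessions, 7793 were matched to a gene, so these 24 genes may still be on the array.

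A cell that divides first licenses its replication origins, where the origin recognition complex and CDC6 load the MCM helicase, then copies its DNA with the sliding clamp PCNA and a supply of nucleotides, and finally separates the copies in mitosis. Cyclins with their kinases drive these steps, whereas inhibitors such as p21 and the retinoblastoma protein hold cells in G1. In muscle, myoblasts divide first and leave the cell cycle for good when they differentiate and fuse, so that transcripts of replication and mitosis are plentiful in dividing myoblasts and scarce in myotubes.

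The cells were grown from the semitendinosus of bulls aged 15 months. Limousin (LIM) and Hereford (HER) stood for beef cattle and Holstein Friesian (HF) for dairy cattle, with 4 bulls of each breed. All cultures were collected in the proliferation phase, at 80% confluence, and each was enriched for myoblasts by preplating, which does not yield a pure culture. RNA of a beef bull was hybridised beside RNA of an HF bull on 8 two-colour arrays. On 4 arrays LIM cells carried Cy5 and HF cells Cy3, and on the other 4 HER cells carried Cy3 and HF cells Cy5. The barcodes of the scanner output put each comparison on 1 slide, and all its arrays have 1 dye orientation, so that the part of breed in a ratio cannot be told apart from that of slide or dye. Both comparisons share the HF cultures, so that they are not independent of each other.

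Values are log2 ratios of a beef breed over HF, so that a value below 0 stands for a lower transcript level in the beef breed. A gene was called when the limma test gave a Benjamini-Hochberg adjusted p of at most 0.05 over all 17631 tested probes and the fold change was at least 1.3. The test used 1 estimate of a gene's spread for both comparisons, so a p value does not rest on the SD printed beside it. Beside LIM and HER, the mean of both comparisons (the beef mean) was tested, in which a constant dye effect of a gene cancels. Its SE and p values take the 8 arrays as independent, although both comparisons share HF cultures. Called genes were frequent throughout the series, and the ratios of all tested probes had an SD of 0.65 to 0.98 on an array. Ratios of whole cultures cannot tell a smaller number of dividing cells apart from less RNA in each of them.

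Replication and mitosis genes were lower in the beef breeds on average. In LIM, 10 of the 33 genes were called lower, a share of 30.3% against 18.3% of all tested probes, and 3 were called higher, against 16% of all probes. In HER, 3 genes (9.09%) were called lower, below the 14% of all probes, and 2 were called higher, where 10.4% of all probes were. Which comparison had more lower genes depended on the fit. With each comparison fitted on its own arrays, limma called 1 gene lower in LIM and 10 in HER. Of the members called in LIM with all arrays, BUB3 and CCND3 kept the call and the others lost it. Each HER call was kept. Of the 17631 tested probes, those fits called 2244 lower in LIM and 2474 in HER. In the beef mean, 16 genes (48.5%) were called lower and 3 higher, against 20.4% and 17.7% of all probes. With arrays of 1 replicate number averaged first, 9 genes and 3122 of all tested probes were called lower in the beef mean. At an unadjusted p of at most 0.05 past the same fold threshold, 14 genes were lower in LIM, 12 in HER, and 21 in the beef mean, against 21.3%, 19.9%, and 21.7% of all probes.

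Replication and mitosis genes lay below 0 with few exceptions, whereas the G1 genes and the inhibitors were split. The median of the 12 replication genes was -0.48 in LIM, -0.64 in HER, and -0.55 in the beef mean. The median of the 14 mitosis genes was -0.72 in LIM, -0.48 in HER, and -0.52 in the beef mean. Over all tested probes the medians were -0.01, -0.06, and -0.04. All 14 mitosis genes had a mean below 0 in both comparisons, as did all 12 replication genes in HER and 11 of them in LIM. The genes called higher came from the G1 group and the pocket proteins, namely CCND3, CCNE2, and RB1. Of the 4 G1 genes, 2 means were below 0 and 2 above it in LIM and in HER, with medians of 0.10 and 0.08. The inhibitors were split 1 and 1, with medians of -0.02 and 0.14. CDKN2C was called lower in LIM, and neither inhibitor was called in HER or in the beef mean. The difference between the groups was not tested.

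**Figure D1:**
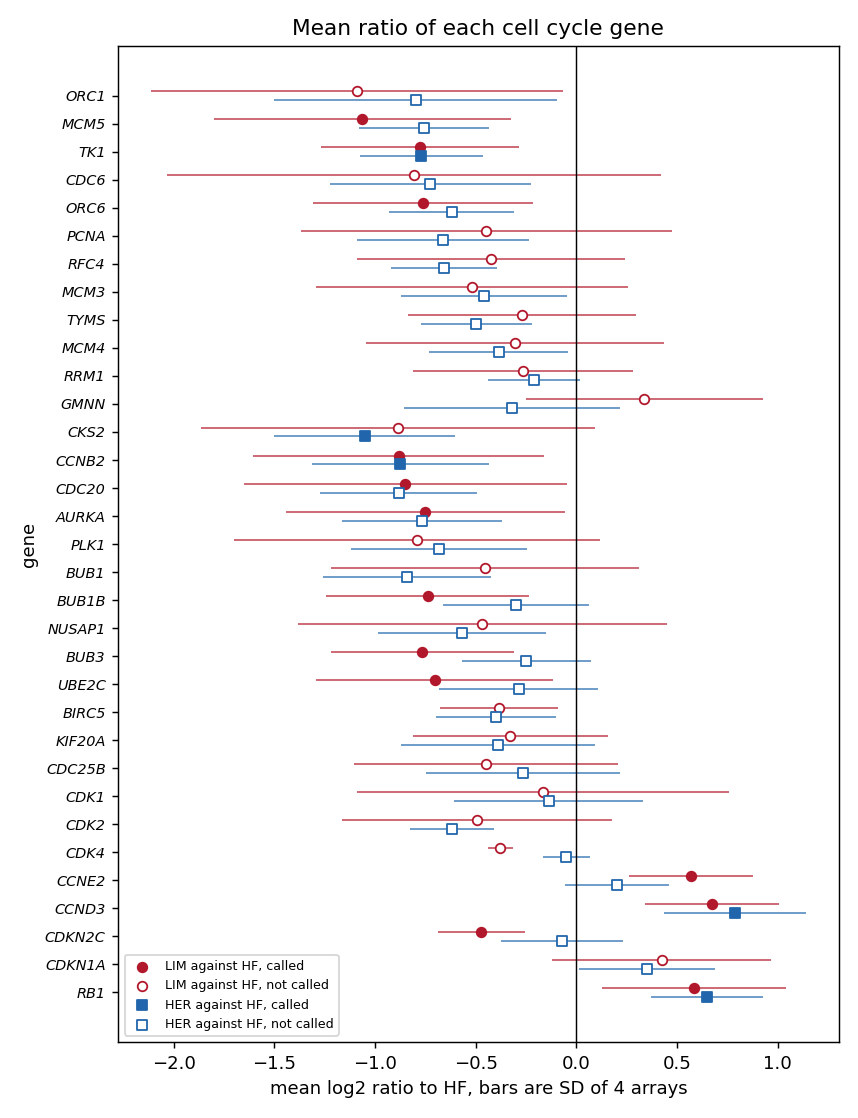
Mean log2 ratio to HF of the 33 genes (x axis) by gene (y axis), with LIM as circles and HER as squares, bars for the SD of 4 arrays, and filled symbols for called genes. Means of replication and mitosis genes lie left of 0 with the single exception of GMNN in LIM at 0.34, while CCND3, CCNE2, CDKN1A, and RB1 lie right of 0 in both comparisons.

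The LIM calls leaned on single arrays. The count of genes called lower in LIM was 1, 3, 0, and 21 when LIM replicate 1, 2, 3, or 4 was left out, and 7, 7, 7, and 10 when HER replicate 1, 2, 3, or 4 was. Of all 17631 tested probes, 2622, 2404, 2110, and 3734 were lower in LIM without these LIM arrays. Without these HER arrays, 3068, 3015, 3028, and 3027 probes were. Without LIM replicate 3, where the limma test left 0 genes, 7 were lower at an unadjusted p. Without that array, 6225 of all tested probes passed the unadjusted rule in either direction. With all arrays, 21.3% of all tested probes were lower in LIM by that rule. In HER the count of genes called lower was 0, 0, 0, and 2 without HER replicate 1, 2, 3, or 4, with 7, 1, and 8 genes at an unadjusted p in the first 3 of these cases, and 5, 1, 1, and 14 without LIM replicate 1, 2, 3, or 4. In those first 3 cases, 4818, 4972, and 5678 of all tested probes passed the unadjusted rule in either direction. With all arrays, 19.9% of all tested probes were lower in HER by that rule. Of all tested probes, 896, 901, 1570, and 1901 were lower in HER without HER replicate 1, 2, 3, or 4. The probe counts were 2435, 2131, 2034, and 3151 without LIM replicate 1, 2, 3, or 4. For the beef mean the count of genes called lower was 15, 8, 12, and 16 without HER replicate 1, 2, 3, or 4, and 11, 12, 9, and 24 without LIM replicate 1, 2, 3, or 4. Its probe counts were 3168, 3256, 3429, and 3644 without these HER arrays and 3387, 3312, 3254, and 3993 without these LIM arrays. MCM5, ORC6, TK1, CCND3, CCNB2, CDC20, BUB3, AURKA, CKS2, and RB1 were called in the beef mean in each of these 8 cases. Since the HF cultures are shared, arrays of 1 replicate number were also averaged first, and then 9 genes were called lower and 2 higher in the beef mean. In that fit, 3122 of all tested probes were lower and 2636 higher. The calls of ORC1, CDK2, BUB1, BUB3, PLK1, BIRC5, UBE2C, and CCNE2 were lost in this way.

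Among the genes that license origins, MCM5, a subunit of the replicative helicase, was lower on every array. Its ratios on LIM replicates 1 to 4 were -1.70, -1.02, -1.49, and -0.04, and on HER replicates 1 to 4 they were -0.69, -1.12, -0.86, and -0.35. LIM replicate 4 lay close to 0 and apart from the other LIM arrays, whose values overlapped with HER replicate 2 alone. The mean was -1.06 ± 0.74 (SD, n = 4) in LIM, a 2.09-fold difference with an adjusted p of 0.0135 by limma, and -0.76 ± 0.32 in HER, with an adjusted p of 0.0605. The LIM call was lost without LIM replicate 1 or 3, and also with LIM fitted on its own arrays. The beef mean was -0.91 ± 0.18 (SE), or 1.88-fold lower, with an adjusted p of 0.00404 by limma.

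MCM3 and MCM4, subunits of the same helicase, were not called in any comparison. MCM3 had ratios of -1.52, -0.25, -0.63, and 0.33 in LIM and -0.40, -0.82, -0.71, and 0.10 in HER. MCM4 had ratios of -1.05, 0.05, -0.78, and 0.56 in LIM and 0.01, -0.71, -0.63, and -0.21 in HER. Both were above 0 on LIM replicate 4 and lowest on LIM replicate 1, and the 95% interval of the beef mean ran from -0.93 to -0.04 for MCM3 and from -0.76 to 0.07 for MCM4. The LIM means went from -0.52 to -0.80 for MCM3 and from -0.30 to -0.59 for MCM4 without LIM replicate 4, and the beef mean of both was called, as was MCM3 in LIM.

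ORC1 and ORC6 belong to the origin recognition complex, which marks the sites where copying starts. ORC1 held the lowest single value of the list, with -2.14, -1.12, -1.41, and 0.31 in LIM and -0.89, -1.64, -0.73, and 0.07 in HER. Both replicate 4 arrays were above 0 and the other 6 were far below. Its means were -1.09 ± 1.02 (SD, n = 4) in LIM and -0.80 ± 0.70 in HER, neither of them called, and its beef mean of -0.94 ± 0.27 (SE) was called with an adjusted p of 0.0202 by limma, a call lost without HER replicate 2 or LIM replicate 3. That call was also lost with arrays of 1 replicate number averaged first. ORC6 was below 0 on all 8 arrays, with -1.34, -0.73, -0.95, and -0.03 in LIM and -0.90, -0.83, -0.51, and -0.23 in HER. The replicate 4 arrays again lay nearest to 0. Its LIM mean of -0.76 ± 0.55 was called with an adjusted p of 0.0212 by limma, a call lost without LIM replicate 1, 2, or 3, and its beef mean was -0.69 ± 0.15 (SE) with an adjusted p of 0.00533.

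CDC6, which loads the helicase on origins, differed most between LIM replicate 4 and the rest. It had ratios of -1.77, -1.12, -1.33, and 0.99 in LIM and of -0.74, -1.08, -1.07, and -0.02 in HER. With LIM replicate 4, the LIM mean was -0.81 ± 1.23 (SD, n = 4) and not called, and without it, the mean was -1.41 and called, as were HER and the beef mean. GMNN codes for geminin, which blocks a further round of licensing, and was the replication gene with opposite means, 0.34 ± 0.59 in LIM and -0.32 ± 0.54 in HER. Its ratios were -0.07, 0.89, -0.26, and 0.79 in LIM and -0.06, -0.07, -1.13, and -0.03 in HER, so that 2 LIM arrays were far above 0 and HER replicate 3 alone was far below it. The difference of 0.66 had a 95% interval of -0.16 to 1.47.

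PCNA, the sliding clamp of the DNA polymerases, had ratios of -1.66, -0.30, -0.41, and 0.58 in LIM and of -0.36, -0.96, -1.10, and -0.23 in HER. It was below 0 on 7 of 8 arrays and was not called, with a beef mean of -0.55 ± 0.22 (SE) and an adjusted p of 0.0698 by limma. That mean was -0.73 and called without LIM replicate 4. RFC4, a subunit of the clamp loader, had ratios of -1.04, -0.48, -0.69, and 0.51 in LIM and of -0.48, -1.05, -0.58, and -0.52 in HER. Its beef mean of -0.54 ± 0.16 was called with an adjusted p of 0.0245, a call lost without HER replicate 2 or LIM replicate 1, 2, or 3. It was also called in LIM, at -0.74, and in HER without LIM replicate 4.

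Of the genes that supply nucleotides, TK1, the thymidine kinase of the salvage route, was the 1 called in each comparison. Its ratios were -1.13, -0.78, -1.12, and -0.08 in LIM and -0.81, -1.02, -0.92, and -0.33 in HER. All 8 were below 0, and the replicate 4 array was the highest of each comparison. The means were -0.78 ± 0.49 (SD, n = 4) in LIM and -0.77 ± 0.31 in HER, both 1.71-fold lower, with adjusted p values of 0.0155 and 0.0234 by limma. The LIM call was lost without LIM replicate 1, 2, or 3, and the HER call without HER replicate 1, 2, or 3. In the beef mean, TK1 was at -0.77 ± 0.14 (SE) with an adjusted p of 0.00234.

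TYMS, thymidylate synthase of the de novo route, and RRM1, the large subunit of ribonucleotide reductase, lay nearer to 0. The TYMS ratios ran from -0.74 to 0.44 in LIM and from -0.81 to -0.23 in HER. The RRM1 ratios ran from -0.66 to 0.54 in LIM and from -0.51 to -0.03 in HER. In both genes only LIM replicate 4 was above 0, and the beef means of -0.38 ± 0.15 (SE) and -0.24 ± 0.14 were not called. Without LIM replicate 4, the TYMS beef mean of -0.50 was called, as was TYMS in HER, and RRM1 was called in LIM at -0.53, with a beef mean of -0.37 that was not.

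**Figure D2:**
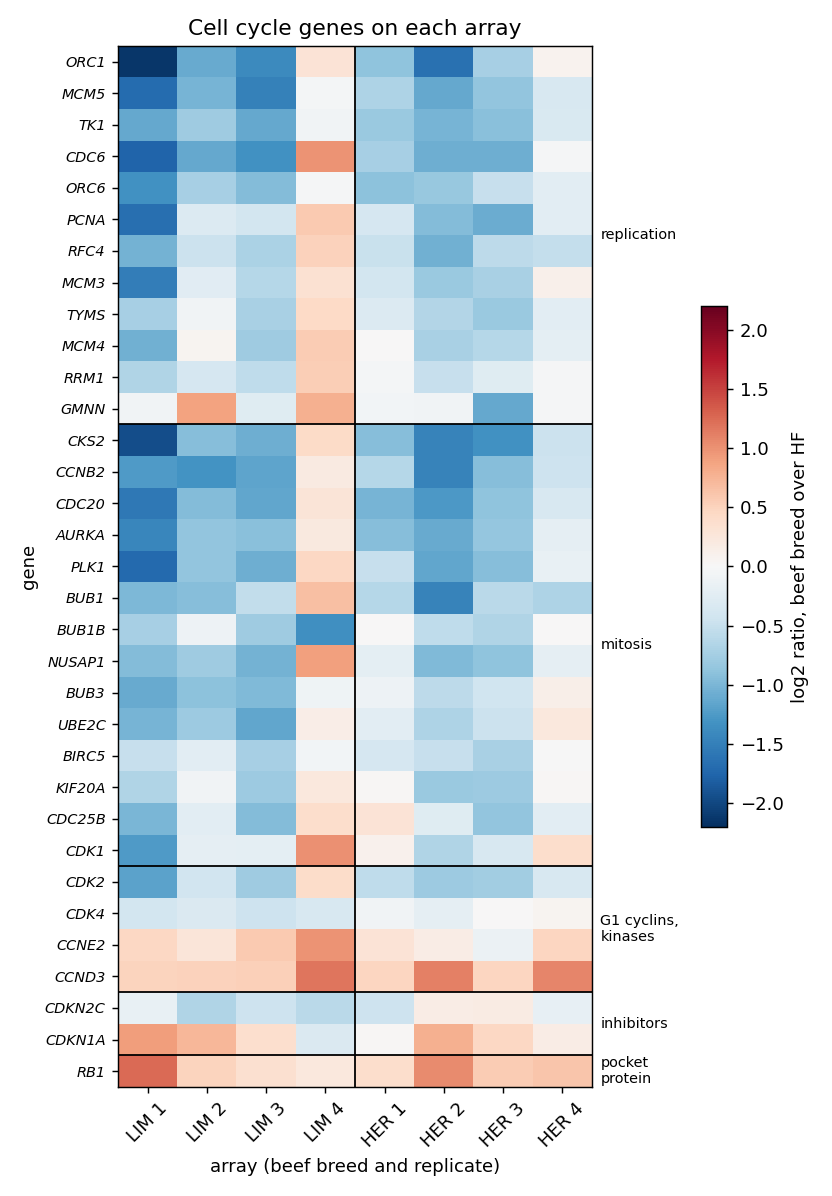
Log2 ratio of the beef breed over HF (color) for each of the 33 genes (rows, ordered by group and mean) on each of the 8 arrays (columns). Replication and mitosis genes are blue on most arrays and mostly red on LIM replicate 4, where 3 of 12 and 3 of 14 of them are below 0, while CCND3 and RB1 are red on all 8 arrays.

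Among the drivers of mitosis, CCNB2, a cyclin of the mitotic kinase CDK1, was called in both comparisons. Its ratios were -1.25, -1.32, -1.16, and 0.20 in LIM and -0.63, -1.47, -0.93, and -0.46 in HER. The first 3 LIM arrays lay close together, whereas LIM replicate 4 was the only array above 0. The means were -0.88 ± 0.72 (SD, n = 4) in LIM and -0.87 ± 0.44 in HER, with adjusted p values of 0.0326 and 0.0442 by limma. The LIM call was lost without LIM replicate 1, 2, or 3, and without LIM replicate 4 the LIM mean was -1.24. The HER call was lost without any HER array and without LIM replicate 1, 2, or 3. The beef mean was -0.88 ± 0.19 (SE), or 1.84-fold lower, with an adjusted p of 0.00577.

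CKS2, a small subunit that binds cyclin-dependent kinases, had the lowest HER mean and the lowest beef mean of the list. Its ratios were -1.95, -0.93, -1.08, and 0.42 in LIM and -0.93, -1.46, -1.34, and -0.47 in HER. It was below 0 on 7 of 8 arrays. The HER mean of -1.05 ± 0.45 (SD, n = 4), a 2.07-fold difference, had an adjusted p of 0.0493 by limma and was lost without any HER array and without LIM replicate 2 or 3. For the beef mean, it was -0.97 ± 0.23 (SE) with an adjusted p of 0.01.

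The kinase CDK1 itself was not called. It had ratios of -1.25, -0.20, -0.22, and 1.01 in LIM and of 0.09, -0.67, -0.36, and 0.39 in HER. Both signs occurred in each comparison, and the 95% interval of its beef mean ran from -0.67 to 0.37. Its LIM mean went from -0.16 to -0.56 without LIM replicate 4 and was still not called. CDC25B, a phosphatase that activates CDK1, was below 0 on 6 of 8 arrays, with means of -0.45 ± 0.66 (SD, n = 4) in LIM and -0.27 ± 0.48 in HER that were not called. It was called in LIM at -0.73 and in the beef mean at -0.50 without LIM replicate 4.

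CDC20 and UBE2C work with the anaphase-promoting complex, which marks mitotic cyclins for destruction. CDC20 had ratios of -1.58, -0.96, -1.15, and 0.29 in LIM and of -1.03, -1.26, -0.89, and -0.34 in HER. The LIM mean of -0.85 ± 0.80 (SD, n = 4) had an adjusted p of 0.0444 and the HER mean of -0.88 ± 0.39 an adjusted p of 0.0501 by limma, on either side of the threshold with nearly the same size. The LIM call was lost without HER replicate 1, 2, or 3 and without LIM replicate 1, 2, or 3. CDC20 was called in the beef mean at -0.87 ± 0.20 (SE) with an adjusted p of 0.00769.

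UBE2C had ratios of -1.03, -0.80, -1.14, and 0.15 in LIM and of -0.24, -0.68, -0.47, and 0.24 in HER. Both replicate 4 arrays were above 0. The LIM mean of -0.70 ± 0.59 (SD, n = 4) was called with an adjusted p of 0.0415 by limma and the HER mean of -0.29 ± 0.39 was not. Its calls in LIM and in the beef mean, which was -0.50 ± 0.16 (SE) with an adjusted p of 0.0335, were lost when any of LIM replicates 1 to 3 or HER replicates 1 to 3 was left out. The beef mean call was also lost with arrays of 1 replicate number averaged first.

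The spindle checkpoint, which delays chromosome separation until all chromosomes are attached, was measured by BUB1, BUB1B, and BUB3. BUB1 had ratios of -0.99, -0.93, -0.55, and 0.66 in LIM and of -0.63, -1.47, -0.59, and -0.68 in HER. BUB1B had ratios of -0.73, -0.11, -0.78, and -1.34 in LIM and of 0.01, -0.56, -0.66, and 0.01 in HER. BUB1B was thus lowest on LIM replicate 4, where BUB1 was highest.

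BUB3 had ratios of -1.10, -0.90, -0.97, and -0.09 in LIM and of -0.11, -0.58, -0.44, and 0.13 in HER. The first 3 LIM arrays were lower than every HER array. In LIM, BUB1B (-0.74 ± 0.50, SD, n = 4) and BUB3 (-0.77 ± 0.46) were called, with adjusted p values of 0.0232 and 0.0144 by limma. The BUB3 call in LIM was lost without LIM replicate 1, 2, or 3, and the BUB1B call without LIM replicate 1, 3, or 4. In the beef mean, all 3 were called, BUB1 at -0.65 ± 0.19 (SE), BUB1B at -0.52 ± 0.14, and BUB3 at -0.51 ± 0.13, and the call of BUB1 was lost without HER replicate 2 or LIM replicate 1, 2, or 3 and that of BUB1B without HER replicate 2. With arrays of 1 replicate number averaged first, BUB1 and BUB3 were no longer called. BUB1 was called in LIM, at -0.82, and in HER without LIM replicate 4.

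Of the mitotic kinases, AURKA, which acts at the spindle poles, had ratios of -1.44, -0.87, -0.91, and 0.21 in LIM and of -0.93, -1.10, -0.85, and -0.19 in HER. PLK1, which acts from entry into mitosis to cytokinesis, had ratios of -1.70, -0.86, -1.07, and 0.46 in LIM and of -0.50, -1.14, -0.93, and -0.16 in HER. Both genes were below 0 on the other 7 arrays and above 0 on LIM replicate 4. AURKA was called in LIM (-0.75 ± 0.69, SD, n = 4, adjusted p of 0.0484 by limma), a call lost without any of LIM replicates 1 to 3 or HER replicates 1 to 3, and in the beef mean (-0.76 ± 0.18, SE, adjusted p of 0.00888). PLK1 was called in the beef mean alone (-0.74 ± 0.22, SE, adjusted p of 0.0247), and that call was lost without HER replicate 2 or 3 or LIM replicate 1, 2, or 3. It was also lost with arrays of 1 replicate number averaged first.

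BIRC5 codes for survivin, a subunit of the chromosomal passenger complex. Its ratios were -0.50, -0.23, -0.73, and -0.07 in LIM and -0.37, -0.50, -0.72, and -0.01 in HER. All 8 were below 0 but small, and the beef mean of -0.39 ± 0.11 (SE) was called with an adjusted p of 0.0167 by limma, a call lost without HER replicate 2 or 3 or LIM replicate 1 or 3. Averaging arrays of 1 replicate number first also lost this call. KIF20A, a kinesin of cytokinesis, and NUSAP1, which binds spindle microtubules, were not called. KIF20A ran from -0.80 to 0.23 in LIM and from -0.82 to 0.03 in HER. NUSAP1 had ratios of -0.96, -0.78, -1.03, and 0.90 in LIM and of -0.22, -0.96, -0.89, and -0.19 in HER, so that 3 LIM arrays were close together and LIM replicate 4 was on the other side of 0. Without that array, and with no other single array left out, NUSAP1 was called in LIM at -0.92, in HER, and in the beef mean at -0.75. The same held for KIF20A in the beef mean, at -0.45.

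The genes of the G1 phase moved in both directions. CCND3, the cyclin D that partners with CDK4 and CDK6 and accumulates in differentiating muscle cells, was above 0 on all 8 arrays. Its ratios were 0.50, 0.50, 0.52, and 1.17 in LIM and 0.48, 1.11, 0.48, and 1.07 in HER. The values fell near 0.5 or near 1.1, with both replicate 4 arrays and HER replicate 2 in the upper set. The means were 0.67 ± 0.33 (SD, n = 4) in LIM and 0.79 ± 0.35 in HER, or 1.59-fold and 1.72-fold higher, with adjusted p values of 0.0158 and 0.0144 by limma. The LIM call held without any single array, and the HER call was lost only without HER replicate 2. The beef mean of 0.73 ± 0.12 (SE) had an adjusted p of 0.00162, the lowest among the 33 genes.

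CCNE2, a cyclin E that activates CDK2 at entry into S phase, had ratios of 0.46, 0.26, 0.57, and 0.99 in LIM and of 0.31, 0.16, -0.14, and 0.47 in HER. It was above 0 on 7 of 8 arrays. The LIM mean of 0.57 ± 0.31 (SD, n = 4) was called with an adjusted p of 0.0181 by limma, a call lost without LIM replicate 3, and the HER mean of 0.20 ± 0.26 was not. The beef mean of 0.39 ± 0.10 (SE) was called with an adjusted p of 0.016 and lost without HER replicate 1 or 4 or LIM replicate 4. Averaging arrays of 1 replicate number first also lost this call.

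CDK2, the partner of CCNE2, went the other way, with ratios of -1.17, -0.43, -0.78, and 0.40 in LIM and of -0.55, -0.79, -0.77, and -0.35 in HER. Its beef mean of -0.56 ± 0.16 (SE) was called with an adjusted p of 0.021 by limma, a call lost without HER replicate 2 or 3 or LIM replicate 3. That call was also lost with arrays of 1 replicate number averaged first. CDK2 was also called in LIM, at -0.79, and in HER without LIM replicate 4. CDK4, the kinase bound by D cyclins, varied least of all members. Its ratios were -0.40, -0.31, -0.45, and -0.35 in LIM and -0.07, -0.21, 0.01, and 0.06 in HER, so that every LIM array was lower than every HER array. The LIM mean of -0.38 ± 0.06 (SD, n = 4) had an adjusted p of 0.0155 and fell just short of the fold change of 1.3, so it was not called. Without LIM replicate 4, it was -0.39 and called.

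RB1 codes for the retinoblastoma protein, a pocket protein that binds E2F factors and restrains genes of the S phase. Its ratios were 1.25, 0.50, 0.35, and 0.24 in LIM and 0.38, 1.04, 0.56, and 0.61 in HER. All 8 were above 0, and LIM replicate 1 and HER replicate 2 were the highest. The means were 0.58 ± 0.46 (SD, n = 4) in LIM and 0.65 ± 0.28 in HER, with adjusted p values of 0.0361 and 0.0336 by limma. The LIM call was lost without HER replicate 3 or 4 or LIM replicate 1, 2, or 3, and the HER call without any HER array and without LIM replicate 2. RB1 was called in the beef mean at 0.62 ± 0.13 (SE) with an adjusted p of 0.00503. A second probe of RB1 gave 0.86 in LIM and 1.01 in HER and was also above 0 on all 8 arrays.

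Only 2 inhibitors had a matched probe, and they did not move together. CDKN1A, or p21, which inhibits cyclin-dependent kinases and is induced when myoblasts leave the cell cycle, had ratios of 0.92, 0.73, 0.37, and -0.32 in LIM and of 0.02, 0.78, 0.46, and 0.15 in HER. It was above 0 on 7 arrays and below 0 on LIM replicate 4. With all arrays, its beef mean was 0.39 ± 0.15 (SE), with an adjusted p of 0.0588 by limma, and was not called. Without LIM replicate 4, it was 0.51 and called, as was its LIM mean of 0.67. CDKN2C, or p18, an inhibitor of CDK4 and CDK6, had ratios of -0.17, -0.66, -0.46, and -0.60 in LIM and of -0.45, 0.16, 0.19, and -0.18 in HER. The LIM arrays were all below 0 and the HER arrays scattered around it. The LIM mean of -0.47 ± 0.22 (SD, n = 4) was called with an adjusted p of 0.0307, a call lost without LIM replicate 2, 3, or 4.

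LIM replicate 4 stood apart from the other arrays in these genes. The median of the replication genes was 0.48 on this array, against -1.23, -0.42, and -0.75 on LIM replicates 1 to 3 and -0.44, -0.90, -0.77, and -0.22 on HER replicates 1 to 4. The median of the mitosis genes was 0.26 on this array, against -1.07, -0.83, and -0.96 on the other LIM arrays and -0.30, -0.89, -0.82, and -0.18 on the HER arrays. Thus 13 of the 33 genes (39.4%) were below 0 on the other 7 arrays and above 0 on LIM replicate 4, a pattern chosen after the values were seen, which 5.12% of all tested probes showed. The 3 replication genes below 0 on this array were MCM5, ORC6, and TK1, all between -0.08 and -0.03, and the 3 mitosis genes were BUB1B, BUB3, and BIRC5. HER replicate 4 was the least lowered of the HER arrays in both groups.

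Across arrays, 82 of the 96 values of replication genes were below 0, and 79 of 84 without LIM replicate 4. For mitosis genes, it was 92 of 112 values, and 89 of 98 without LIM replicate 4. MCM5, ORC6, TK1, and BIRC5 were below 0 on all 8 arrays (12.1% of the 33 genes, against 16.9% of all tested probes). CCND3 and RB1 were above 0 on all 8 (6.06% against 11.7%). On all 4 HER arrays, 18 genes (54.5%) were below 0, against 30% of all tested probes, and on all 4 LIM arrays, 8 genes (24.2%), against 25.3%.

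**Figure D3:**
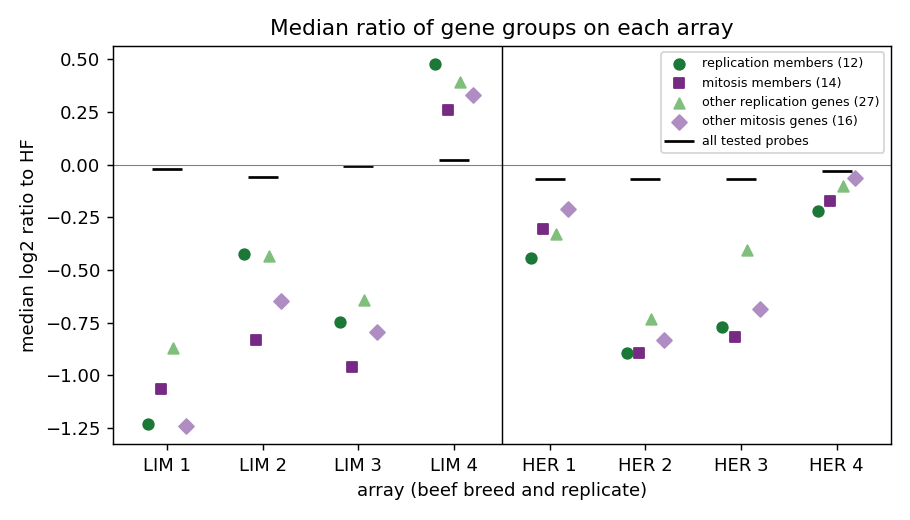
Median log2 ratio to HF (y axis) of the replication and mitosis members and of the other replication and mitosis genes on each array (x axis), with bars for the median of all tested probes. All 4 gene groups lie below the bar on 7 arrays and above it on LIM replicate 4, where the medians of the members are 0.48 and 0.26.

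The HF and the beef signals moved in opposite directions on that array. For the 26 replication and mitosis genes, the median level in the LIM signal was -0.41, 0.20, -0.41, and 0.63 on LIM replicates 1 to 4, on a log2 scale relative to the mean of these arrays. In the HF signal of the same arrays, it was 0.21, 0.26, -0.11, and -0.31. In the HER comparison, the HER signal was at 0.32, -0.06, -0.28, and 0.02 and the HF signal at 0.20, 0.29, -0.09, and -0.39. Both replicate 4 arrays therefore held the lowest HF level of their comparison, and LIM replicate 4 also the highest beef level. Which HF bull was hybridised on which array is not stated.

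**Figure D4:**
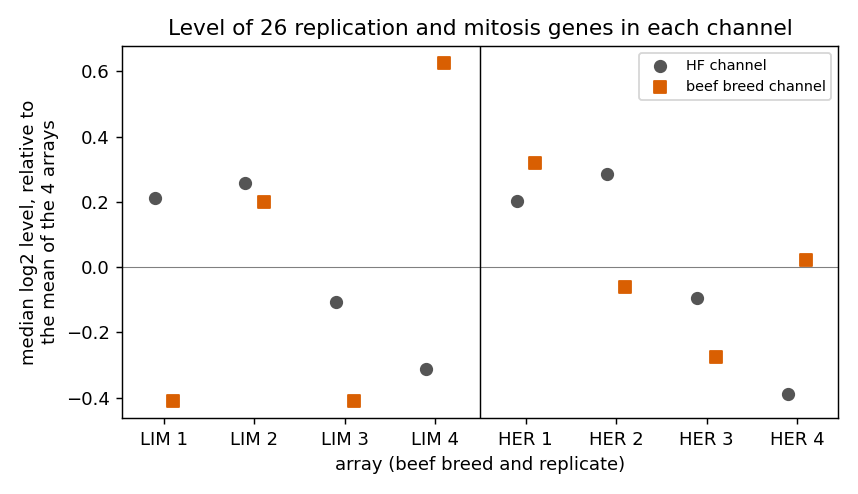
Median log2 level of the 26 replication and mitosis genes (y axis), relative to the mean of the 4 arrays of a comparison, in the HF signal (circles) and the beef breed signal (squares) of each array (x axis). The HF level is lowest on both replicate 4 arrays (-0.31 and -0.39), and the beef level is highest on LIM replicate 4 (0.63).

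LIM replicate 4 also weighed on the number of calls, since all comparisons share 1 estimate of the spread. The array was singled out after its values were seen, and its omission favours calls of genes that went the other way on it. For PCNA, MCM3, MCM4, CDC6, TYMS, RRM1, CDC25B, KIF20A, NUSAP1, and CDKN1A, each call gained came in 1 of the 8 leave-one-out cases. Below are the counts without LIM replicate 4. Without it, 21 genes were called lower in LIM, 14 in HER, and 24 in the beef mean, against 21.2%, 17.9%, and 22.6% of all tested probes. Without both replicate 4 arrays, it was 20, 17, and 24 genes, against 20.9%, 17.9%, and 23.5% of all tested probes. With LIM replicate 4 alone left out, the LIM means of several genes lay further from 0. That of PLK1 went from -0.79 to -1.21, that of CKS2 from -0.89 to -1.32, and that of CDC6 from -0.81 to -1.41, and all 3 were then called. BUB1B was the exception among mitosis genes, at -0.54 without this array and no longer called in LIM, and CDKN2C was also lost. CCND3 was lower without this array, with a LIM mean of 0.51, and was still called.

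The markers of muscle cells were mixed on the replicate 4 arrays. MYOG, the factor that starts differentiation, had ratios of 2.57, 1.35, 2.06, and 2.18 in LIM and of 1.49, 2.17, 2.40, and 2.21 in HER. MYH3, an embryonic myosin, ran from 3.27 to 4.69 in LIM and from 3.50 to 4.47 in HER, and DES, the intermediate filament desmin of the myoblast list, from 1.64 to 3.74 and from 1.83 to 3.01. On LIM replicate 4, these 3 genes stood at 2.18, 4.62, and 3.37, within the range of the other LIM arrays. All 7 measured genes of the list of differentiating muscle cells were called higher in both comparisons, against 16% of all tested probes in LIM and 10.4% in HER. That list was chosen with earlier results of these data known. The median of the 7 genes was 3.03 on LIM replicate 4, within the range of 2.29 to 4.15 of all arrays. Within that list, MYL1, a myosin light chain, was lowest on LIM replicate 4, at 1.23 against 3.60 to 4.90 on the other LIM arrays. Of the 6 measured myoblast genes, 3 had their lowest LIM ratio on LIM replicate 4 (MYF5, ITGA7, and NCAM1) and 4 their lowest HER ratio on HER replicate 4 (MYF5, CDH15, NCAM1, and ITGA7). NCAM1, a cell adhesion molecule, was at -3.18 on LIM replicate 4 and between 0.06 and 1.79 on the other LIM arrays.

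Of the 8 measured fibroblast genes, 5 (COL1A1, COL3A1, LUM, DCN, and THY1) had their lowest ratio on replicate 4 of each comparison, whereas PDGFRA and TCF21 were highest on LIM replicate 4 and FAP lay within the other LIM arrays. The median of the 8 fibroblast genes was 0.19 on LIM replicate 4, against 1.42 to 1.62 on the other LIM arrays, and 0.46 on HER replicate 4, against 1.06 to 1.69 on the other HER arrays. Of these 8 genes, 4 were called higher and 1 (PDGFRA) lower in LIM, and 4 were higher and 2 lower (PDGFRA and TCF21) in HER. Of all tested probes, 16% were called higher and 18.3% lower in LIM, and 10.4% and 14% in HER. On LIM replicate 4, the 2 endothelial and the 2 leukocyte genes had their highest LIM ratio, which none of them had on HER replicate 4. Of 3 genes of smooth muscle cells and pericytes, 2 were lowest on replicate 4 of each comparison. Of 4 adipocyte genes, 2 were lowest and 1 was highest there. The part of any of these markers in the ratios of the cell cycle genes was not tested.

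The ratios of LIM and HER to HF did not differ detectably in any of the 33 genes. Slide and dye orientation go with the breed, so they cannot be told apart from breed in this comparison. By limma, 0 genes were called in the difference of LIM and HER, against 0.233% of all tested probes, and 0 at an unadjusted p of at most 0.05 past the same fold threshold, where 14.1% of all tested probes were. The adjusted p values ran from 0.299 to 0.997. The lowest was that of CDK4, whose difference was -0.33, with a 95% interval of -0.63 to -0.02. Differences of the size of the main effects were within the intervals, as for BUB3 (-0.52, from -1.12 to 0.09), BUB1B (-0.44, from -1.10 to 0.22), CDKN2C (-0.40, from -0.85 to 0.05), and MCM5 (-0.31, from -1.13 to 0.52). For TK1, the difference was -0.0049, with an interval of -0.63 to 0.62.

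Other genes of the same pathways, taken from a list of 95 of which 56 had a matched and tested probe, were read beside the members. Of 27 further replication genes, 5 were called lower in LIM, 1 in HER, and 7 in the beef mean, and none was called higher, with medians of -0.41, -0.37, and -0.40. These shares of 18.5%, 3.7%, and 25.9% stood beside 18.3%, 14%, and 20.4% of all tested probes. RNASEH2A, a subunit of the nuclease that removes ribonucleotides from DNA, was the 1 called in HER, with means of -0.74 ± 0.32 (SD, n = 4) in LIM and -0.69 ± 0.30 in HER. CDC45, a part of the replicative helicase, was the lowest of them in LIM, at -1.01 ± 0.44, and was also called in the beef mean.

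Of 16 further mitosis genes, 3 were called lower in LIM, 0 in HER, and 7 in the beef mean, and all 16 means were below 0 in both comparisons, with medians of -0.56, -0.46, and -0.49. The shares of 18.8%, 0%, and 43.8% stood beside the same 18.3%, 14%, and 20.4%. In HER, 4 of the 16 were lower at an unadjusted p, against 19.9% of all tested probes. The lowest in LIM and in the beef mean was CDCA3, which takes part in entry into mitosis, at -0.98 ± 0.75 (SD, n = 4) in LIM and -0.63 ± 0.38 in HER. On LIM replicate 4, the medians of the further replication and mitosis genes were 0.39 and 0.33, above 0 like those of the members.

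Some genes of growth arrest outside the members had larger ratios than any member. Of 8 measured inhibitors and arrest genes, 3 were called higher in LIM, 4 in HER, and 4 in the beef mean (37.5%, 50%, and 50%, against 16%, 10.4%, and 17.7% of all tested probes), and none was called lower. GADD45G, a stress-induced gene that restrains the cell cycle, had ratios of 4.35, 3.62, 3.81, and 2.48 in LIM and of 3.66, 4.09, 3.07, and 1.90 in HER. Its relatives GADD45A (1.72 ± 0.56, SD, n = 4, in LIM and 1.70 ± 0.48 in HER) and GADD45B (1.29 ± 0.56 and 1.43 ± 0.29) were above 0 on all 8 arrays too. In all 3 genes the replicate 4 array had the smallest ratio of each comparison. CDKN2B, or p15, an inhibitor of CDK4 and CDK6, was called in HER at 1.27 ± 0.40 and not in LIM at 0.76 ± 0.84. Of 5 measured transcription factors of the cell cycle, E2F4 was called lower in LIM (-0.67 ± 0.68) and in the beef mean. It was at -1.61 on LIM replicate 4 and between -0.66 and -0.06 on the other LIM arrays. E2F6, read by the brightest of its 3 probes, was called higher in LIM (0.53 ± 0.11) and was at -0.11 in HER.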

How the data were processed

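Gene expression was measured on 8 two-colour Agilent arrays, grouped by the breed, dye, and replicate number of the sample labels. Per array, the authors deposited spot intensities and a log10 ratio of red (Cy5) over green (Cy3), which Feature Extraction 10.7.3.1 had made after subtracting background and normalizing the dyes. Their table over all arrays repeats these log10 ratios. No spot was saturated.

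From the deposited log10 ratios, log2 ratios of the beef breed over HF were computed, with the sign turned on the HER arrays. Control spots and outlier spots were left out and spots of a probe were averaged. Of 21475 probes, 17631 were tested, each well above its background in 4 or more of the 16 channels. The test used limma 3.58.1 in R 4.3.3, in 1 fit of all 8 arrays that gave each comparison its own mean. Symbols came from RefSeq accessions looked up in a gene table of assembly ARS-UCD2.0, which matched 7793 of 20693 accessions. Of several probes per gene the brightest one counted, which among the members concerned RB1 alone. Coordinates and promoter sequences were not analysed here.

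The members and lists were chosen with earlier results of these data known. All measured members are named, and of other pathway genes and markers those called at the ends of a list, with MYOG, MYH3, and DES. GADD45A, GADD45B, CDKN2B, E2F4, E2F6, MYL1, and the myoblast and fibroblast genes other than DES were named after their values were seen. The steps were tested on simulated data. Alternatives covered background and normalization, centring, scaling, filters, outlier spots, array weights, the methods' t-test, adjustment, fold change, separate fits, a replicate block, probes per gene, and each array left out. Those that averaged arrays of 1 replicate number, left out both replicate 4 arrays, or used a fixed block were added after the data were seen. The labels do not say that same-numbered arrays share cultures, so no block was used in the main test, and the spread between arrays may be partly technical. The 4 arrays per comparison limit the precision.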

Additional observations from a re-analysis of the deposited data

Results flagged for a closer look

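In 66 sets of 4 arrays (33 genes in LIM and in HER), 6 single values lay apart from the other 3 of their set by more than Dixon's critical ratio at the 95% level, where chance would give about 3.3. On LIM replicate 4, these were CCND3 at 1.17 (the others 0.50 to 0.52), CCNB2 at 0.20 (the others -1.32 to -1.16), and NUSAP1 at 0.90 (the others -1.03 to -0.78). On HER replicate 2, they were RFC4 at -1.05 (the others -0.58 to -0.48) and BUB1 at -1.47 (the others -0.68 to -0.59). On HER replicate 3, GMNN was at -1.13, with the others between -0.07 and -0.03. All values are log2 ratios to HF, and what set these arrays apart was not tested.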

How the results depend on the processing

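No call reversed under any alternative, and the medians of the replication and mitosis genes stayed below 0 in all. The beef mean of MCM5, ORC6, TK1, CCND3, CCNB2, CDC20, AURKA, CKS2, and RB1 was called under all 24 alternatives run on it. Some of these could not lose a call, namely the unadjusted p, no fold change threshold, and the authors' table of the same ratios. Averaging the probes of a gene changed the values of RB1 alone among the members. Of all tested probes, 6056 were called in LIM, 4302 in HER, 6723 in the beef mean, and 41 in LIM minus HER. With normexp and loess on local backgrounds as measured, HER had 0 calls among all probes (1742 at an unadjusted p), 0 lower and 0 higher members (4 and 1 unadjusted), and a replication median of -0.25. The beef mean then had 3289 calls and 9 lower members, and LIM minus HER 0 calls (1522 unadjusted). With outlying backgrounds replaced or no background subtraction, LIM minus HER had 1 call, and 45.2% and 44.9% of the HER calls were lower, against 57.4%. Lower members in HER numbered 1 with median centring or no filter, 10 with scaling between arrays, 6 with probes above background in all channels, 13 with array weights, 12 by limma at an unadjusted p, and 10 with each comparison fitted on its own. Under these settings LIM minus HER had 12 calls with scaling, 76 with no filter, 0 with probes above background in all channels (1839 unadjusted), 224 with array weights, and 2482 at an unadjusted p. Lower members in LIM numbered 22 with array weights and 1, with 1 higher, in a fit of its own. The methods' t-test gave 2 lower members in LIM and 11 in HER unadjusted, and 0 lower and 0 higher in either after Benjamini-Hochberg, with 1002 and 2 probes called (66.1% of the 1002 lower, against 53.3% by limma). Unadjusted, it called 2732 of all tested probes lower in LIM and 2845 in HER. The cause of these shifts was not tested.

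With the replicate block, 11, 5, and 16 members were lower in LIM, HER, and the beef mean, and LIM minus HER had 147 calls, or 0 with a fixed block (2706 unadjusted). Same-numbered arrays had correlations of -0.24, 0.13, 0.30, and 0.54 in the deviations of their ratios, which also hold the beef signal. The HF signals were compared as deviations from each probe's mean over all 8 arrays. In these, the correlation of each array was highest with that of its own number (0.40, 0.28, 0.43, and 0.68). Between arrays of different numbers, the HF correlations ran from -0.47 to -0.17. Subtracting that mean by itself lowers the correlations, so values below 0 do not show HF cultures that moved in opposite directions. The labels do not give the numbers as pairs, so the main test did not use them as such. With arrays of 1 number averaged, 9 members were lower in the beef mean. Without both replicate 4 arrays, lower members were 20 in LIM and 17 in HER, 1 was higher in HER, and LIM minus HER had 1 call. With each array left out in turn, calls ran from 3796 to 7011 in LIM, 1527 to 5439 in HER, and 1 to 14 in LIM minus HER, lower members from 0 to 21, 0 to 14, and 8 to 24 in LIM, HER, and the beef mean, and higher members from 1 to 4 in LIM and 0 to 2 in HER.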
